A study of Mus musculus with 94 samples.

Results

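The genes compared here are the 14115 that could be matched between a PRO-seq table and a poly(A) RNA-seq table of the same RAD21-degron cells, out of 22529 genes in the PRO-seq table and 15363 in the RNA-seq table. Of them, 13467 had enough reads in both assays to be tested and 648 did not. The cells were differentiating mouse embryonic stem cells of a CAST/Ei x 129/Sv/Jae hybrid line that carries a Tsix-stop allele, in which the cohesin subunit RAD21 was fused to an FKBP degron. The line was studied as 2 clones, C4 and G9, and each clone gave 1 library per assay and treatment, so 8 of the 94 samples of the series enter. Treated cells received 500 nM dTAG-13, the small molecule that sends FKBP-tagged protein for degradation, for 8 h before harvest, and their controls received DMSO alone for 8 h. PRO-seq was done on day 7 of differentiation as embryoid bodies without leukemia inhibitory factor, and RNA-seq of polyA RNA on day 10. The undifferentiated cells had been grown on irradiated mouse embryonic fibroblast feeders. All groups, controls included, carry the degron allele and the Tsix-stop allele, each clone descends from a single isolate, and the labels do not say whether libraries came from separate cultures. The p-values rest on a spread between these libraries that is estimated largely over many genes together. They do not measure the spread of a single gene between the clones.

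Cohesin is a ring-shaped complex that extrudes chromatin loops and holds sister chromatids together, and RAD21 is the subunit that closes the ring. PRO-seq maps RNA polymerases that are engaged on genes, so it reads transcription at the moment of harvest, whereas poly(A) RNA-seq reads the mature RNA that has accumulated and not yet been degraded. A long-lived mRNA can therefore keep its level for hours after its transcription has changed, and an mRNA can change in level without a matching change in transcription. In the present design the assay and the day of differentiation differ together and cannot be told apart, and in bulk samples fewer cells of a type and less RNA per cell cannot be told apart either.

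Library totals, in units of 1000000 counts, were 22.8 and 14.9 in the dTAG-13 PRO-seq libraries of clones C4 and G9, against 34.3 and 14.3 in DMSO. They were 26.5 and 13.8 in the dTAG-13 RNA-seq libraries, against 23.6 and 33.8 in DMSO. Levels below are counts per 1000000 of the library size scaled by the trimmed mean of M-values (CPM), always for clone C4 and then clone G9, and each response is the log2 ratio of dTAG-13 over DMSO. Rad21 itself was at 191 and 182 CPM in dTAG-13 PRO-seq libraries, against 168 and 168 CPM in DMSO, and at 284 and 216 CPM in dTAG-13 RNA-seq libraries, against 251 and 201 CPM in DMSO. Neither assay called it, with adjusted p of 0.15 and 0.12 by edgeR. The degron acts on the protein, so this transcript checks nothing about the labels. Of 21 genes of the cohesin machinery, 0 had a called difference between the assays, which was called for 1.91% of all tested genes.

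Marker genes of several cell types were present in every library. Pluripotency markers summed to 1609 and 1111 CPM in dTAG-13 PRO-seq libraries, against 1779 and 1385 CPM in DMSO, and to 3150 and 2703 CPM in dTAG-13 RNA-seq libraries, against 3592 and 2959 CPM in DMSO. Primitive streak and mesoderm markers set the clones apart on day 7. They summed to 210 and 613 CPM in dTAG-13 PRO-seq libraries, against 262 and 899 CPM in DMSO. On day 10 the clones were close, with 1251 and 1314 CPM in dTAG-13 libraries, against 1423 and 1478 CPM in DMSO. The 16 fibroblast and feeder markers summed to 505 and 559 CPM in dTAG-13 PRO-seq libraries, against 462 and 757 CPM in DMSO, and to 4457 and 4202 CPM in dTAG-13 RNA-seq libraries, against 4359 and 3929 CPM in DMSO. None of these fibroblast markers was at 0 in any library, and their part in the results was not tested.

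Among the 13467 genes, PRO-seq called 1541 (11.4%) at an adjusted p under 0.05, of which 803 (5.96%) were higher and 738 (5.48%) lower after dTAG-13. RNA-seq called 2505 (18.6%), with 1309 (9.72%) higher and 1196 (8.88%) lower. These shares of all tested genes are the background for the counts of list members given below. A joint fit of all 8 libraries then tested the difference of the responses, PRO-seq minus RNA-seq, and called 257 genes (1.91%). The PRO-seq response was below the RNA-seq response in 138 of them (1.02%) and above it in the others (0.884%). Across all tested genes the responses correlated with Pearson r = 0.38 and Spearman rho = 0.31, a description over genes that share libraries and depth. The median response of all genes was -0.02 in PRO-seq and 0.00 in RNA-seq.

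Genes called in both assays mostly moved the same way: of 678, 312 fell in both, 306 rose in both and 60 moved in opposite directions. The opposite genes were 41 with lower PRO-seq and higher RNA-seq signal, and 19 with the reverse. The difference itself was called for 54 of the 60. A further 863 genes were called in PRO-seq and not in RNA-seq, but the difference was called for only 67 of them, 34 rises and 33 falls. Likewise 1827 genes were called in RNA-seq and not in PRO-seq, and the difference was called for 96, 44 rises and 52 falls. For the other genes called in 1 assay, the responses of both assays were not shown to differ. Another 38 genes moved the same way in both assays by unequal amounts, and 2 had a called difference with neither response called. These counts depend on the scaling, the libraries and the fit. Scaled by library totals in place of trimmed means, RNA-seq called 648 genes higher and 1217 lower, and the difference was called with PRO-seq above RNA-seq in 169 genes and below it in 116. Under that scaling the genes called in PRO-seq alone with a called difference were 56 rises and 32 falls, and those of RNA-seq alone were 32 rises and 77 falls. The number of genes with a called difference was 1700 without the dTAG-13 PRO-seq library of clone C4 and 109 without the DMSO RNA-seq library of clone G9, against 257 with all libraries, and it was 143 with DESeq2. Without a clone term edgeR called 0 differences, with 245 genes at an unadjusted p under 0.05. Under the 15 alternatives that kept the clone term, 65 of the 257 genes held their call throughout and 0 of the 257 changed the sign of the difference. These 15 are not separate checks. Taking the calls of each assay from the joint fit leaves the test of the difference as it was, so it could not lose a call. Leaving out either library of a clone in an assay removes the same pair from the comparison, so these alternatives nearly repeat each other. Genes named below as the largest of a class averaged at least 1 on the log2 CPM scale in each assay.

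**Figure D1:**
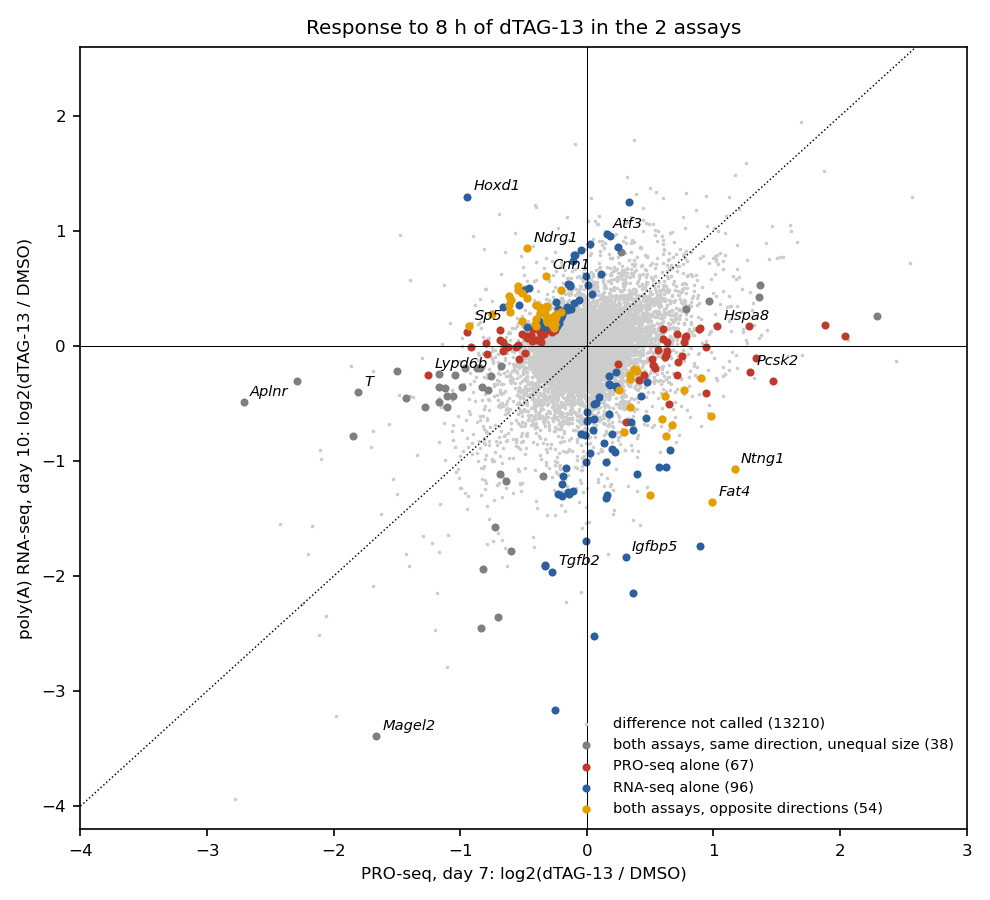
Response of each gene to dTAG-13 in PRO-seq on day 7 (x axis, log2) and in RNA-seq on day 10 (y axis, log2), for 13467 genes, with 1 gene outside the axes. Large points are genes with a called difference, coloured by class, the pale cloud holds genes without one, and the dotted line marks equal responses. Of the 13467 genes, the 2 with a called difference and neither response called are not drawn. The 54 yellow points lie in the upper left and lower right quadrants, where the assays moved in opposite directions.

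Of the regulators of the primitive streak, the source of mesoderm and endoderm, 6 of 18 had a lower response in nascent RNA than in poly(A) RNA, and some of these rose in poly(A) RNA. T, the T-box factor brachyury that defines the streak, was at 5.23 and 42.4 CPM in dTAG-13 PRO-seq libraries, against 19.1 and 145 CPM in DMSO. In RNA-seq it was at 275 and 201 CPM in dTAG-13 libraries, against 381 and 253 CPM in DMSO. Both assays separated the treatments within each clone, but the PRO-seq response was -1.81 (SE 0.11) and the RNA-seq response -0.40 (SE 0.07). Their difference of -1.40 had an edgeR adjusted p of 0.00012.

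Fgf8, a signal of the streak, responded by -1.05 (SE 0.09) in PRO-seq and -0.25 (SE 0.06) in RNA-seq. Eomes, a T-box factor of the anterior streak and definitive endoderm, responded by -0.85 (SE 0.11) in PRO-seq and -0.19 (SE 0.07) in RNA-seq. For a pair of homeobox genes of the streak, Gsc and Evx1, PRO-seq and RNA-seq moved in opposite directions. Evx1 was at 6.31 and 24.7 CPM in dTAG-13 PRO-seq libraries, against 7.97 and 40.2 CPM in DMSO, a response of -0.54 (SE 0.15). Its RNA was at 99.5 and 68.9 CPM in dTAG-13 libraries, against 63.7 and 55.8 CPM in DMSO, a response of 0.48 (SE 0.06). Evx1 overlaps the antisense gene Evx1os in RefSeq, and since the counting rule is not given in the sources used here their reads may not be separated. Gsc fell to 1.55 and 6.8 CPM in dTAG-13 PRO-seq libraries, against 2.16 and 12.9 CPM in DMSO, while its RNA was at 50.7 and 63.3 CPM in dTAG-13 libraries, against 41.7 and 52.3 CPM in DMSO. Its PRO-seq response of -0.75 (SE 0.25) passed narrowly, with an edgeR adjusted p of 0.047, and its RNA-seq response was 0.28 (SE 0.06).

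Of the 18 streak and mesoderm genes tested, 8 fell and none rose in PRO-seq, whereas 9 fell and 5 rose in RNA-seq. The difference was called for 6, all with PRO-seq below RNA-seq: T, Gsc, Evx1, Mixl1, Fgf8 and Eomes. The list medians were -0.54 in PRO-seq and -0.13 in RNA-seq, beside -0.02 and 0.00 over all genes. Without either PRO-seq library of clone C4, more of the 18 differences were called with PRO-seq below RNA-seq, but so were more differences over all genes. Without either PRO-seq library of clone G9, the clone with the higher streak signal, 4 of the 18 differences were called in this direction and 1 in the other, and the Gsc and Mixl1 differences were not called. The Mixl1 difference was also lost with DESeq2, limma-voom and without either RNA-seq library of clone G9. Foxa2, a forkhead factor of the node and endoderm, responded by -1.50 (SE 0.32) in PRO-seq and -0.22 (SE 0.06) in RNA-seq. Its difference too was lost without clone G9 in PRO-seq, and also with limma-voom. Of all genes that fell in both assays, the largest excess of the PRO-seq fall was in Aplnr, a receptor of migrating mesoderm, followed by Cyp26a1, which breaks down retinoic acid, both picked after their values were seen. Aplnr was at 0.0431 and 1.37 CPM in dTAG-13 PRO-seq libraries, against 0.629 and 8.09 CPM in DMSO, and at 71.8 and 74.4 CPM in dTAG-13 RNA-seq libraries, against 107 and 96.7 CPM in DMSO. The single lowest of these values lies under the level of 3 counts in its library, 0.132 CPM. Cyp26a1 responded by -2.29 (SE 0.22) in PRO-seq and by -0.30 (SE 0.06) in RNA-seq.

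**Figure D2:**
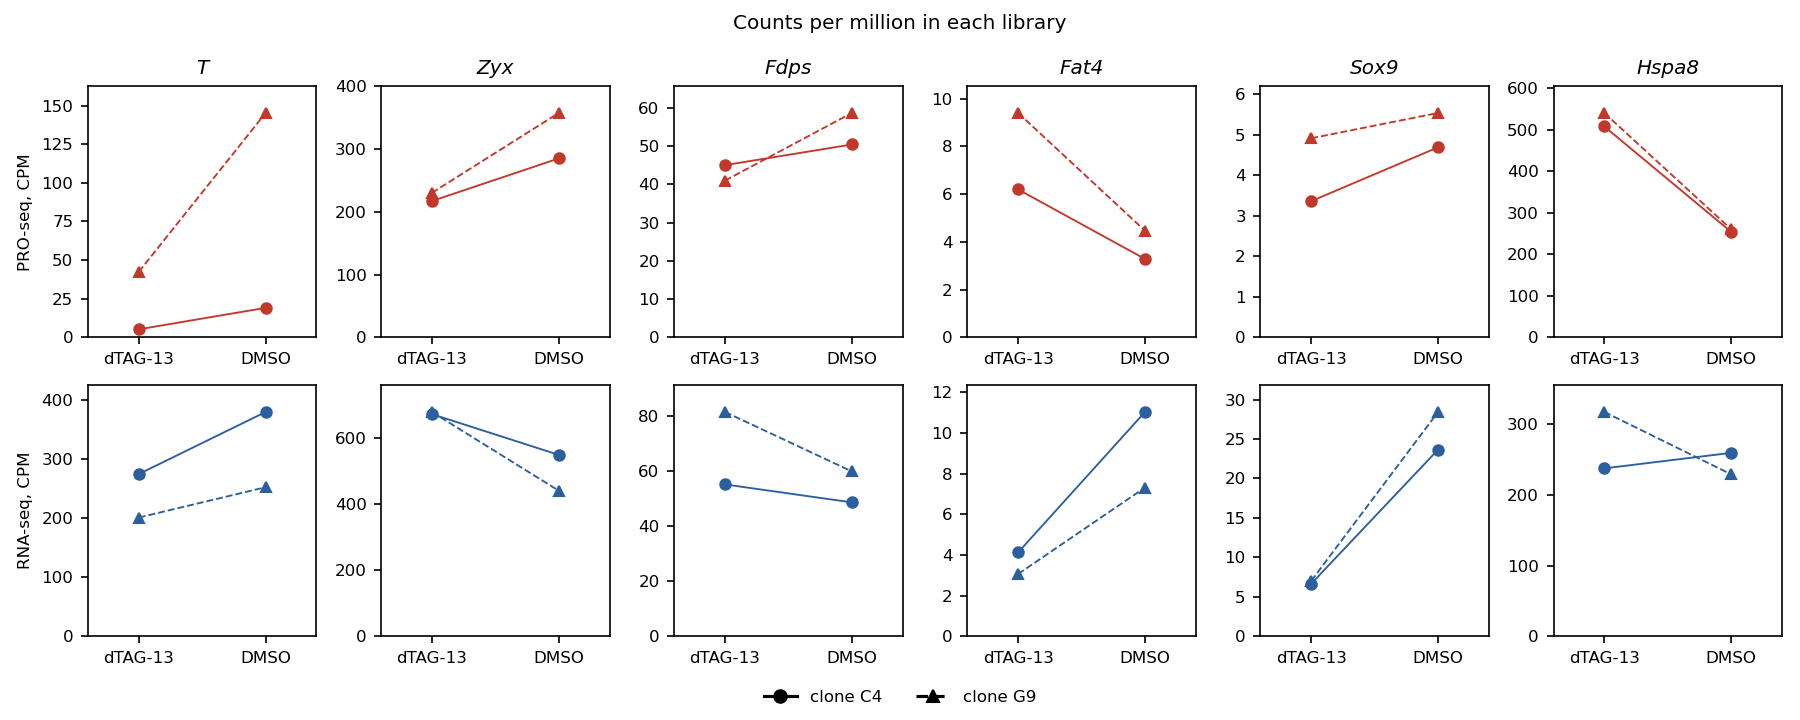
CPM in each library for T, Zyx, Fdps, Fat4, Sox9 and Hspa8, with PRO-seq in the upper row and RNA-seq in the lower row. Each line joins the dTAG-13 and the DMSO library of 1 clone. T fell in both rows, Zyx and Fdps were lower in PRO-seq and higher in RNA-seq after dTAG-13, Fat4 did the reverse, Sox9 was lower in RNA-seq in both clones, and Hspa8 was higher in PRO-seq in both clones.

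Some primed epiblast genes, which mark the stage before gastrulation, also fell further in PRO-seq. Fgf5, a ligand of the primed state, was at 82.4 and 150 CPM in dTAG-13 PRO-seq libraries, against 181 and 321 CPM in DMSO, and at 142 and 190 CPM in dTAG-13 RNA-seq libraries, against 184 and 244 CPM in DMSO. Its responses were -1.12 (SE 0.07) in PRO-seq and -0.37 (SE 0.06) in RNA-seq. Zic2, a zinc finger factor, responded by -1.27 (SE 0.10) in PRO-seq and -0.53 (SE 0.06) in RNA-seq. The 13 tested genes held 5 falls and no rise in PRO-seq, 7 falls and 3 rises in RNA-seq, and 4 called differences, in Fgf5, Zic2, Sox4 and the DNA methyltransferase gene Dnmt3b, each with PRO-seq below RNA-seq. The list medians were close, -0.31 in PRO-seq and -0.34 in RNA-seq, and the median of the 13 differences was -0.25. The differences of Sox4 and Dnmt3b were lost without any 1 RNA-seq library. That of Dnmt3b was also lost with RLE scaling, library totals or DESeq2, and without either PRO-seq library of clone G9.

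Of 26 pluripotency genes tested, 11 fell in PRO-seq and 14 in RNA-seq, none rose in either, and 9 fell in both. Among the 26, 7 had a positive PRO-seq and a negative RNA-seq estimate, as did 2367 of all 13467 genes. Pou5f1, which encodes OCT4, was the only member with a called difference, at -0.76 (SE 0.12) in PRO-seq and -0.26 (SE 0.07) in RNA-seq, and that call was lost without either RNA-seq library of clone G9. Sox2, which partners OCT4 and overlaps Sox2ot, responded by -0.80 (SE 0.12) in PRO-seq and -0.75 (SE 0.06) in RNA-seq, with a difference of -0.03 (SE 0.15). Sall1, a zinc finger factor, fell by 1.16 in PRO-seq and by 0.36 in RNA-seq on the log2 scale (edgeR adjusted p of the difference 0.0013).

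Some genes of cholesterol synthesis were lower in nascent RNA, some were higher in poly(A) RNA, and 5 were both. Of the 22 tested, 8 fell and none rose in PRO-seq, 11 rose and none fell in RNA-seq, and 19 had a negative PRO-seq and a positive RNA-seq estimate, as did 2967 of all 13467 genes. Fdps, the farnesyl diphosphate synthase gene, was at 45.0 and 41.0 CPM in dTAG-13 PRO-seq libraries, against 50.4 and 58.7 CPM in DMSO. Its RNA was at 55.2 and 81.6 CPM in dTAG-13 libraries, against 48.7 and 59.9 CPM in DMSO. Fdps was lower in PRO-seq and higher in RNA-seq in both clones.

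The difference was called for 7 of the cholesterol genes, in each case with PRO-seq below RNA-seq. Among them, Fdps (-0.33 in PRO-seq and 0.31 in RNA-seq), Mvd, the mevalonate decarboxylase gene (-0.41 and 0.19), Insig1, a sterol sensor (-0.25 and 0.28), and Fdft1, the squalene synthase gene (-0.25 and 0.25), were called in both assays in opposite directions. Mvk, the mevalonate kinase gene, fell in PRO-seq and was not called in RNA-seq. The list medians were -0.25 in PRO-seq and 0.19 in RNA-seq. The calls depended on the fit: DESeq2 called 1 of the differences, no PRO-seq response and 1 RNA-seq response, and without 1 library between 1 and 18 of the differences were called. The Insig1 difference was also lost with library totals. The sign pattern held in 16 to 20 of the 22 genes under every alternative run.

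**Figure D3:**
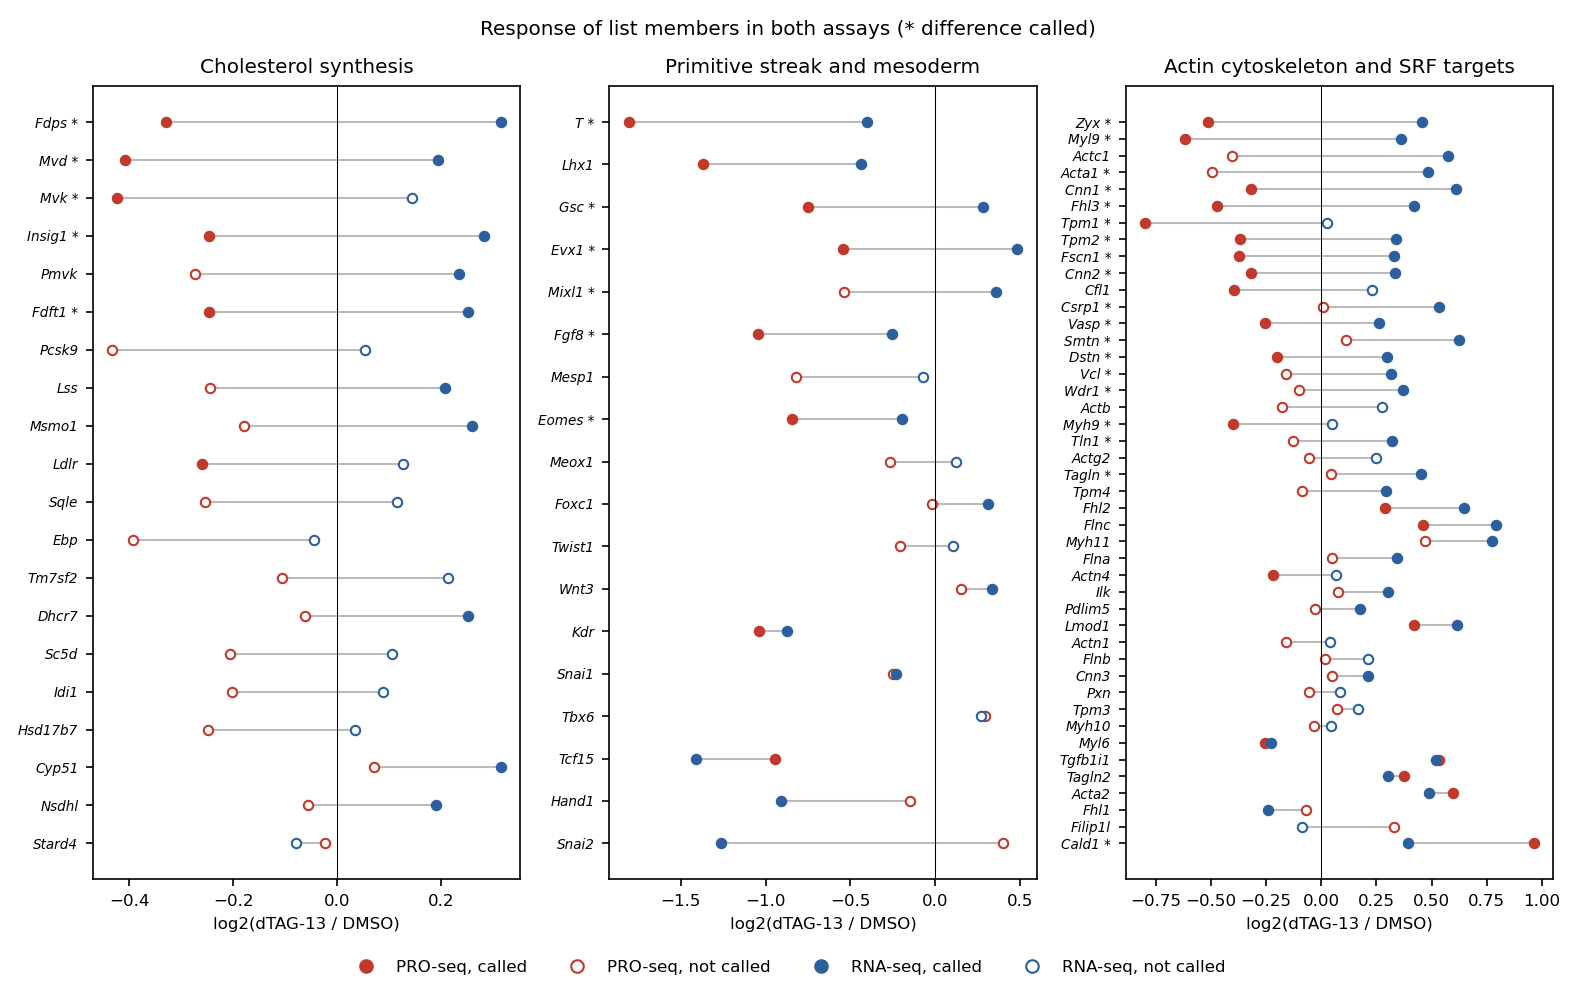
Response of members of 3 gene lists in PRO-seq (red) and RNA-seq (blue) on the log2 scale, ordered by the difference. Filled circles were called in that assay, open circles were not, and asterisks mark genes whose difference was called. In the cholesterol panel, which shows 20 of the 22 genes, 17 have the red point left of zero and the blue point right of it, and T stands at the top of the streak panel.

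Actin cytoskeleton genes were mostly higher in poly(A) RNA and divided in nascent RNA. This list was drawn up after the responses had been seen, so its counts are a description. It holds genes of actin filaments, their binding proteins and focal adhesions, many of them targets of serum response factor (SRF). Of 44 tested, 7 rose and 14 fell in PRO-seq, while 30 rose and 2 fell in RNA-seq. The difference was called for 19, of which 18 had PRO-seq below RNA-seq, and the exception was the caldesmon gene Cald1, which rose by 0.96 in PRO-seq and by 0.39 in RNA-seq. DESeq2 also called 18 in that direction, and without the DMSO RNA-seq library of clone G9 12 were called. Zyx, which encodes the focal adhesion protein zyxin, was at 217 and 230 CPM in dTAG-13 PRO-seq libraries, against 285 and 357 CPM in DMSO, and at 674 and 681 CPM in dTAG-13 RNA-seq libraries, against 550 and 442 CPM in DMSO. Cnn1, the calponin gene of smooth muscle, was at 51.1 and 80.7 CPM in dTAG-13 PRO-seq libraries, against 59.8 and 107.8 CPM in DMSO, and at 139 and 167 CPM in dTAG-13 RNA-seq libraries, against 92.7 and 107.8 CPM in DMSO. In both genes the treatments did not overlap in RNA-seq, and each clone was lower in PRO-seq.

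Myl9, a myosin light chain gene, responded by -0.62 (SE 0.12) in PRO-seq and 0.36 (SE 0.06) in RNA-seq, Cnn2, another calponin gene, by -0.32 (SE 0.07) and 0.34 (SE 0.08), Vcl, the vinculin gene, by -0.16 (SE 0.06) and 0.32 (SE 0.08), and Acta1, the skeletal muscle actin gene, by -0.49 (SE 0.19) and 0.49 (SE 0.07). Vcl and Acta1 were not called in PRO-seq (edgeR adjusted p 0.084 and 0.10). Tropomyosin gene Tpm1 fell by 0.80 (SE 0.06) in PRO-seq and had an RNA-seq response of 0.03 (SE 0.10). Of the differences in Zyx, Cnn1, Myl9, Cnn2, Acta1, Tpm1 and Vcl, that of Vcl was lost without either RNA-seq library of clone G9 and the others were called under all 15 alternatives.

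The promoters of Myl9, Cnn2, Vcl and Acta1 are shown because their RefSeq sequence before the start site holds a CArG box. This is the motif that SRF binds, here in capitals. Each run is the 250 bases before the annotated start in GRCm38.p6, written 5′ to 3′ on the gene's strand.
Myl9 at chr2:156775214-156775463, plus strand: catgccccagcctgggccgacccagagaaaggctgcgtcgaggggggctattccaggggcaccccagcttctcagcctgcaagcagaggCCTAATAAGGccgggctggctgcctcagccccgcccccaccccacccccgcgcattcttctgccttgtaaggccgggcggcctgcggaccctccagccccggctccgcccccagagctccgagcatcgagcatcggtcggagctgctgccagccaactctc
Cnn2 at chr10:79988350-79988599, plus strand: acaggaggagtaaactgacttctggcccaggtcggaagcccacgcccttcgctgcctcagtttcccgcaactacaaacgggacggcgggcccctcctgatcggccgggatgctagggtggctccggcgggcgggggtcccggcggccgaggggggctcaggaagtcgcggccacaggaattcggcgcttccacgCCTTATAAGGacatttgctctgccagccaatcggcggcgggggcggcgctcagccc
Vcl at chr14:20929148-20929397, plus strand: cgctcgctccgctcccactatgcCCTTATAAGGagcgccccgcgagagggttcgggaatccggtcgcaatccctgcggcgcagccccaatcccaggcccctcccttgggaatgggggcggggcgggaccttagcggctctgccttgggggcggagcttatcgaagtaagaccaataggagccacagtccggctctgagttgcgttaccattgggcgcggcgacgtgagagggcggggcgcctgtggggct
Acta1 at chr8:123894776-123895025, minus strand: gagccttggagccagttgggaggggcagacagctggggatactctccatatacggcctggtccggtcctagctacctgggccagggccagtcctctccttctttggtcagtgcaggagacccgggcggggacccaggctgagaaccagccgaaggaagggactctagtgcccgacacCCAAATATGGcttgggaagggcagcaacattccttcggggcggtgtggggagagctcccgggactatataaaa
The box starts 161 bases before the start in Myl9, 56 in Cnn2, 227 in Vcl and 73 in Acta1.

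The CArG box, which is CC and GG around a stretch of A and T bases and was searched on both strands, was present in 9 of the 37 actin genes with a promoter in the RefSeq table (24.3%), against 439 of all 27025 genes (1.62%) and 1.45% of the tested genes with a promoter there. Of these 9 actin genes, only Myl9, Cnn2, Vcl and Acta1 had a called difference. No box was found in the promoters of Zyx, Cnn1 and Tpm1, whose differences were called. Among all genes whose difference was called with PRO-seq below RNA-seq, 11 of the 107 with a promoter held the box (10.3%). Among those with PRO-seq above RNA-seq, 0 of 88 did. Besides Myl9, Cnn2, Vcl and Acta1, the 11 were Tmem63a, Tada3, Arpc4, Hook2, Arid3b, Tcf7 and Trip10, of which Tmem63a fell in both assays. Tada3 and Arpc4 are on opposite strands of chr6, and whether their boxes are the same site was not tested. Without any 1 RNA-seq library the calls of Tada3, Hook2, Arid3b, Tcf7 and Trip10 were lost, and without either of clone G9 those of Arpc4 and Vcl. DESeq2 did not call the differences of Tada3, Hook2, Arid3b, Tcf7 and Trip10 either. The AP-1 motif TGANTCA was in 8.41% of the 107 genes and 7.95% of the 88, the CRE motif TGACGTCA in 3.74% and 1.14%, the TATA box TATAAA in 14% and 14.8%, and the TEAD motif GGAATG in 18.7% and 19.3%. Among the tested genes with a promoter in the table, the set from which the called genes come, these shares were 5.25% for AP-1, 3.09% for CRE, 7.54% for TATA and 13% for TEAD, and in all genes they were 7.82%, 1.77%, 14.3% and 14.4%. The sterol motif TCACNCCAC was in 0 of the 14 cholesterol genes with a promoter in the table and in 1.33% of the tested genes. The actin list was drawn up to hold known SRF targets, so its CArG share is no independent result. The CArG box and the sterol motif were added after the responses had been seen, a match is not a bound site, and no test was made.

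Immediate early genes, which respond within minutes to signals, divided. Of 35 tested, 15 fell and 4 rose in PRO-seq, and 12 rose and 10 fell in RNA-seq. Egr3, a zinc finger factor, was at 23.7 and 52.6 CPM in dTAG-13 PRO-seq libraries, against 38.3 and 69.8 CPM in DMSO, and at 25.0 and 36.6 CPM in dTAG-13 RNA-seq libraries, against 18.9 and 23.7 CPM in DMSO. The orphan receptor gene Nr4a1 responded by -0.40 (SE 0.07) in PRO-seq and 0.36 (SE 0.06) in RNA-seq, and Myc by -0.40 (SE 0.11) and 0.18 (SE 0.06). The Myc difference was lost without any 1 of the RNA-seq libraries. Atf3, a stress-responsive partner of the AP-1 factors, was at 60.6 and 269 CPM in dTAG-13 PRO-seq libraries, against 61.7 and 215 CPM in DMSO, so the clones differed far more than the treatments. Its RNA was at 60.0 and 66.0 CPM in dTAG-13 libraries, against 32.8 and 31.4 CPM in DMSO, a response of 0.97 (SE 0.06). The small Maf gene Maff had a PRO-seq response of 0.24 (SE 0.09), which was not called, and rose by 0.86 (SE 0.07) in RNA-seq. Its difference was lost without either RNA-seq library of clone G9 and with DESeq2. Plk2, a p53 target, did the reverse, with 0.34 (SE 0.07) in PRO-seq and -0.25 (SE 0.06) in RNA-seq. Fos fell in both, by 0.31 in PRO-seq and by 0.24 in RNA-seq.

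Outside these lists, the widest split with lower PRO-seq and higher RNA-seq signal, both called, was in Ndrg1 among the named genes. Ndrg1 is a gene induced by hypoxia and differentiation. It was at 25.3 and 78.2 CPM in dTAG-13 PRO-seq libraries, against 39.9 and 96.2 CPM in DMSO, and at 67.9 and 75.0 CPM in dTAG-13 RNA-seq libraries, against 41.4 and 37.7 CPM in DMSO. The responses were -0.47 (SE 0.10) and 0.85 (SE 0.06), and their difference of -1.32 had an edgeR adjusted p of 0.0011. Sp5, a direct target of Wnt signalling, responded by -0.93 (SE 0.14) in PRO-seq and 0.17 (SE 0.06) in RNA-seq. The RNA-seq rise of Sp5 came from clone G9 and turned to -0.035 without its DMSO RNA-seq library and to -0.034 without its dTAG-13 RNA-seq library. Adcyap1r1, a neuropeptide receptor gene, responded by -0.61 (SE 0.16) in PRO-seq and 0.43 (SE 0.12) in RNA-seq. Its difference was lost without either RNA-seq library of clone C4 and with DESeq2.

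**Figure D4:**
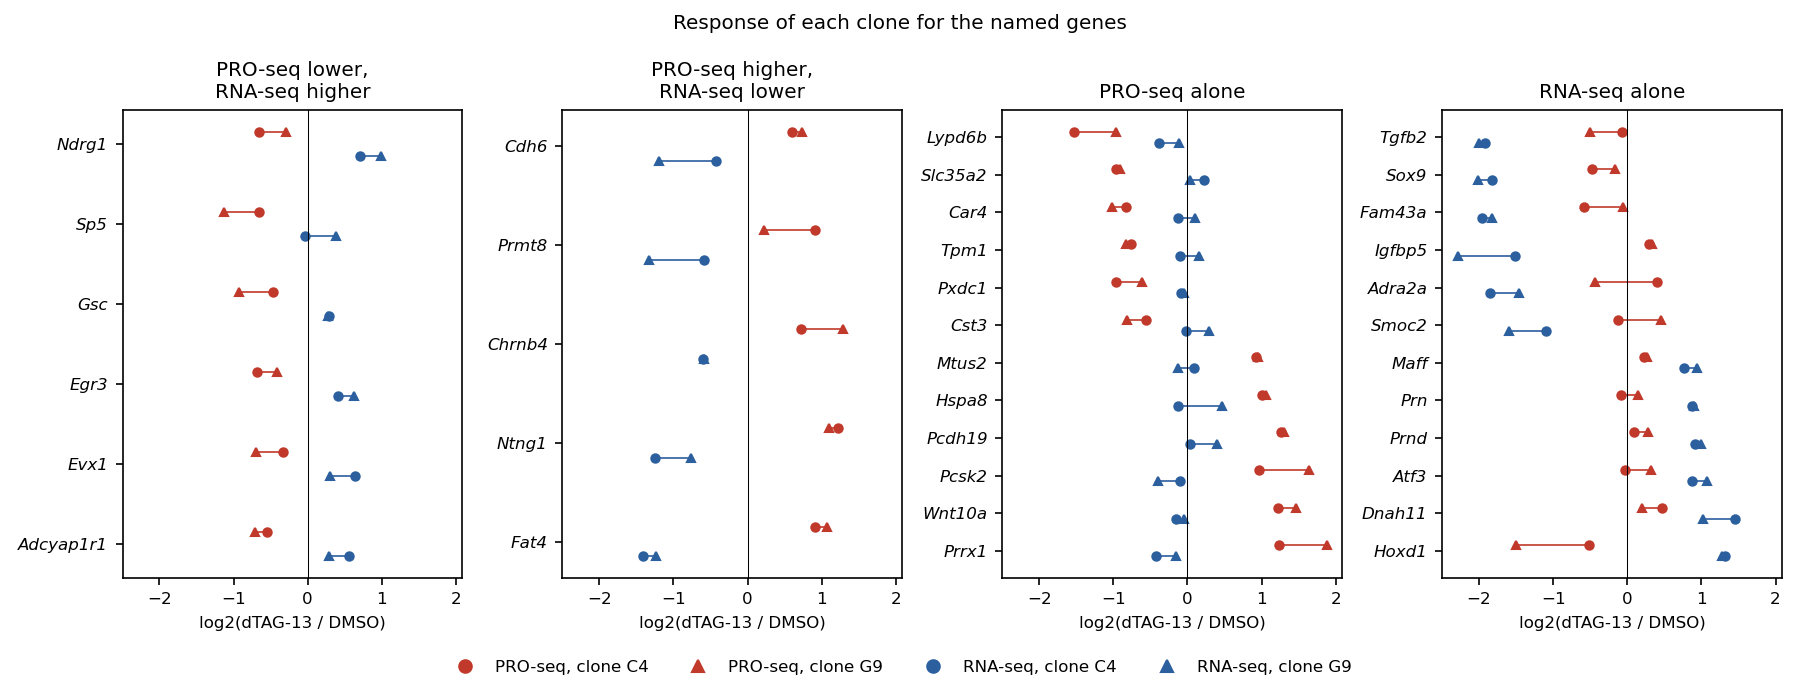
Response of each clone (circle C4, triangle G9) in PRO-seq (red) and RNA-seq (blue), as log2 of dTAG-13 over DMSO with 0.5 counts added. The 2 left panels show named genes called in opposite directions, chosen by the largest difference. The other panels show named genes called in 1 assay alone, chosen by the largest response in that assay. In the 2 left panels the red and blue pairs lie on opposite sides of zero, except for clone C4 of Sp5 in RNA-seq.

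The opposite pattern, higher nascent and lower poly(A) signal, was led among the named genes by Fat4, which encodes an atypical cadherin of planar polarity. Fat4 was at 6.20 and 9.41 CPM in dTAG-13 PRO-seq libraries, against 3.29 and 4.47 CPM in DMSO, and at 4.13 and 3.07 CPM in dTAG-13 RNA-seq libraries, against 11.0 and 7.32 CPM in DMSO. The treatments did not overlap in either assay, and the responses were 0.99 (SE 0.22) and -1.36 (SE 0.17). Ntng1, a netrin-related guidance gene, was at 11.6 and 20.2 CPM in dTAG-13 PRO-seq libraries, against 4.97 and 9.36 CPM in DMSO, and at 2.23 and 2.09 CPM in dTAG-13 RNA-seq libraries, against 5.33 and 3.59 CPM in DMSO. The cadherin gene Cdh6 responded by 0.67 (SE 0.13) and -0.69 (SE 0.16), the nicotinic receptor gene Chrnb4 by 0.98 (SE 0.28) and -0.61 (SE 0.22), and the arginine methyltransferase gene Prmt8 by 0.63 (SE 0.15) and -0.78 (SE 0.21). The imprinted zinc finger gene Plagl1 responded by 0.30 (SE 0.10) in PRO-seq and -0.75 (SE 0.09) in RNA-seq, and it overlaps Hymai. The Fat4, Ntng1 and Plagl1 differences were called under all 15 alternatives that kept the clone term. Those of Cdh6 and Prmt8 were lost without either RNA-seq library of clone G9, and that of Chrnb4 without any 1 RNA-seq library and with DESeq2. These are calls of the difference alone. With DESeq2, 0 genes were called in both assays with higher PRO-seq and lower RNA-seq signal, against 19 in the reported fit.

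Genes that rose in PRO-seq alone included the prohormone convertase gene Pcsk2, which overlaps antisense genes. It was at 141 and 290 CPM in dTAG-13 PRO-seq libraries, against 72.3 and 93.4 CPM in DMSO, and at 13.2 and 8.52 CPM in dTAG-13 RNA-seq libraries, against 14.1 and 11.3 CPM in DMSO. Prrx1, a homeobox gene of mesenchyme, had the largest such rise among the named genes, 1.47 (SE 0.35) in PRO-seq beside -0.31 (SE 0.22) in RNA-seq. Wnt10a rose by 1.34 (SE 0.21), the protocadherin gene Pcdh19 by 1.28 (SE 0.13) and Mtus2 by 0.94 (SE 0.11), with RNA-seq responses of -0.11 (SE 0.25), 0.18 (SE 0.16) and -0.01 (SE 0.19). Hspa8, the constitutive heat shock cognate gene, was at 508 and 540 CPM in dTAG-13 PRO-seq libraries, against 254 and 260 CPM in DMSO, so both clones moved alike. Its RNA was at 237 and 317 CPM in dTAG-13 libraries, against 259 and 229 CPM in DMSO, and here the clones moved in opposite directions. DESeq2 did not call the difference of Hspa8. This gene holds small nucleolar RNA genes in its introns, and the same is true of Rpl7a and Snhg3, whose PRO-seq responses were 0.71 (SE 0.07) and 0.45 (SE 0.07) beside 0.10 (SE 0.06) and -0.25 (SE 0.10) in RNA-seq. Ribosomal protein genes have processed copies elsewhere, so counts for Rpl7a are uncertain. Without 1 RNA-seq library the differences of Prrx1, Wnt10a and Mtus2 were not called, whichever library was left out. Those of Pcdh19, Rpl7a and Snhg3 were not called without either RNA-seq library of clone C4. DESeq2 also did not call the differences of Prrx1, Wnt10a, Mtus2 and Pcdh19, and limma-voom did not call that of Mtus2.

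Falls in PRO-seq alone were led among the named genes by Lypd6b, a gene of the Ly6 family. It was at 19.8 and 32.1 CPM in dTAG-13 PRO-seq libraries, against 57.2 and 62.4 CPM in DMSO. Its RNA was at 5.91 and 9.27 CPM in dTAG-13 libraries, against 7.68 and 10.1 CPM in DMSO, a response of -0.25 (SE 0.14) that did not pass. Slc35a2, the UDP-galactose transporter gene, was at 40.0 and 49.7 CPM in dTAG-13 PRO-seq libraries, against 78.4 and 93.9 CPM in DMSO, while its RNA-seq response was 0.12 (SE 0.08). The carbonic anhydrase gene Car4, the cystatin C gene Cst3 and Pxdc1 fell in PRO-seq by 0.91, by 0.68 and by 0.79 on the log2 scale, with RNA-seq responses of -0.01, 0.14 and -0.07 that were not called. The Lypd6b difference was lost without either RNA-seq library of clone G9 and with limma-voom. The differences of Slc35a2, Car4, Cst3 and Pxdc1 held under all 15 alternatives with the clone term.

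Among named genes called in RNA-seq alone, the largest falls were in Tgfb2, Sox9, Fam43a, Igfbp5 and Adra2a. Tgfb2, a TGF-beta ligand gene, was at 19.4 and 24.0 CPM in dTAG-13 PRO-seq libraries, against 20.4 and 33.9 CPM in DMSO. Its RNA was at 14.0 and 13.4 CPM in dTAG-13 libraries, against 53.1 and 53.8 CPM in DMSO, a response of -1.96 (SE 0.08). Sox9, the chondrogenic and neural crest factor gene, was at 3.36 and 4.91 CPM in dTAG-13 PRO-seq libraries, against 4.69 and 5.53 CPM in DMSO, and at 6.66 and 7.03 CPM in dTAG-13 RNA-seq libraries, against 23.7 and 28.4 CPM in DMSO. The 2 RNA-seq groups were far apart and the PRO-seq groups overlapped. Igfbp5, which binds insulin-like growth factors, was at 6.16 and 3.84 CPM in dTAG-13 PRO-seq libraries, against 5.03 and 3.05 CPM in DMSO, and at 23.0 and 14.7 CPM in dTAG-13 RNA-seq libraries, against 66.1 and 71.8 CPM in DMSO.

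Fam43a responded by -0.33 (SE 0.13) in PRO-seq and -1.91 (SE 0.09) in RNA-seq, the adrenergic receptor gene Adra2a by -0.01 (SE 0.19) and -1.70 (SE 0.21), and Smoc2, a matricellular gene, by 0.15 (SE 0.22) and -1.32 (SE 0.21). The list of Wnt, BMP, Nodal and Notch signalling genes held 7 falls and 2 rises in PRO-seq among 39 tested, and 19 falls and 11 rises in RNA-seq. Differences were called with PRO-seq above RNA-seq for 5 (Tgfb2, Hey2, Bmp2, Dll1 and Jag1) and below it for 4 (Sp5, Axin2, Wnt5b and Smad7). The Notch ligand gene Dll1 responded by -0.20 (SE 0.17) in PRO-seq and -1.20 (SE 0.12) in RNA-seq, and the Dll1, Hey2 and Wnt5b differences were lost without any 1 RNA-seq library. Those of Bmp2, Jag1, Axin2 and Smoc2 were lost without either RNA-seq library of clone G9. Those of Adra2a and Smad7 were lost without either of clone C4, and that of Bmp2 also without the DMSO RNA-seq library of clone C4. DESeq2 did not call the differences of Dll1, Hey2, Wnt5b, Bmp2 and Smoc2. All of these but Dll1 were also lost with limma-voom. Among 44 developmental regulators known as Polycomb targets, 3 fell and 5 rose in PRO-seq, 18 fell and 6 rose in RNA-seq, and the difference was called for 3, Sox9 and Dlx3 with PRO-seq above RNA-seq and Sall1 below it. The Dlx3 difference was lost without any 1 RNA-seq library and with DESeq2.

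Rises in RNA-seq alone were led among the named genes by Hoxd1, a homeobox gene at the 3′ end of its cluster. It was at 1.85 and 1.24 CPM in dTAG-13 PRO-seq libraries, against 2.67 and 3.55 CPM in DMSO, and at 8.06 and 5.46 CPM in dTAG-13 RNA-seq libraries, against 3.23 and 2.26 CPM in DMSO. The PRO-seq response of -0.94 (SE 0.35) did not pass and the RNA-seq response was 1.30 (SE 0.19). Dnah11, an axonemal dynein gene that overlaps Cdca7l, had a PRO-seq response of 0.33 (SE 0.13) and rose by 1.25 (SE 0.14) in RNA-seq. Prn and Prnd, at the prion gene locus, had PRO-seq responses of 0.03 (SE 0.09) and 0.18 (SE 0.20) and rose by 0.89 (SE 0.07) and 0.96 (SE 0.08) in RNA-seq, and since they overlap each other in RefSeq they are not independent. The differences of Dnah11 and Prnd were lost without any 1 RNA-seq library, with DESeq2 and with limma-voom, and that of Prn held. Axin2, a Wnt target, had a PRO-seq response of -0.15 (SE 0.09) and rose by 0.54 (SE 0.06) in RNA-seq. The YAP target gene Ctgf had -0.15 (SE 0.07) in PRO-seq and rose by 0.34 (SE 0.06) in RNA-seq. Both differences were lost without either RNA-seq library of clone G9.

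Other genes moved in the same direction in both assays. Inpp4b, a phosphoinositide phosphatase gene, rose by 1.10 (SE 0.11) in PRO-seq and by 1.13 (SE 0.19) in RNA-seq, and Abtb2 by 0.92 (SE 0.09) and 0.79 (SE 0.06). The metalloprotease genes Adamts15 and Adamts8 had PRO-seq responses of -2.78 and -2.11 and RNA-seq responses of -3.94 and -2.51, all called, without a called difference. For Adamts15 the difference was 1.16 (SE 0.49), so a difference of that size did not pass with an SE this large. Magel2, expressed from the paternal allele in the Prader-Willi interval, fell in both but by more in RNA. It was at 8.72 and 8.62 CPM in dTAG-13 PRO-seq libraries, against 28.1 and 26.8 CPM in DMSO, and at 6.36 and 6.28 CPM in dTAG-13 RNA-seq libraries, against 70.5 and 60.7 CPM in DMSO. The difference of 1.72 (SE 0.16) had an edgeR adjusted p of 0.00062. Of the 38 genes that moved the same way by unequal amounts, 23 fell more in PRO-seq, 9 fell more in RNA-seq, 5 rose more in PRO-seq and 1 rose more in RNA-seq.

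Among 36 imprinted genes, 12 moved the same way in both assays, and the difference was called for Magel2, Plagl1, Grb10 and Sgce with PRO-seq above RNA-seq and for Nespas below it. Nespas, an antisense transcript of the Gnas locus, was at 270 and 284 CPM in dTAG-13 PRO-seq libraries, against 286 and 308 CPM in DMSO, and at 9.31 and 8.90 CPM in dTAG-13 RNA-seq libraries, against 6.33 and 4.19 CPM in DMSO. Nespas lies within a locus of overlapping transcripts, so its counts are uncertain. The Nespas and Grb10 differences were lost without either RNA-seq library of clone G9, and that of Sgce without any 1 RNA-seq library. That of Grb10 was also lost with DESeq2 and limma-voom, and that of Sgce with DESeq2. Of 27 mitosis genes, 2 rose in PRO-seq and 18 rose in RNA-seq, and none fell in either. None of the 27 had a called difference, beside 1.91% of all tested genes, and the medians were 0.08 in PRO-seq and 0.22 in RNA-seq. Of 26 p53 targets 11 rose and none fell in PRO-seq, and 9 rose and 1 fell in RNA-seq. Of 22 glycolysis genes 9 fell and 1 rose in PRO-seq, and 4 fell and 2 rose in RNA-seq. Ribosomal protein genes had 28 of 62 members with a negative PRO-seq and a positive RNA-seq estimate, with medians of -0.10 and 0.06. Of all 13467 genes, 2967 had this sign pattern. Of 38 clustered protocadherins, whose transcripts share exons, 6 fell in PRO-seq and 16 in RNA-seq and none rose. Their medians were -0.14 and -0.10. Over all tested genes, 5.96% rose and 5.48% fell in PRO-seq, and 9.72% rose and 8.88% fell in RNA-seq.

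**Figure D5:**
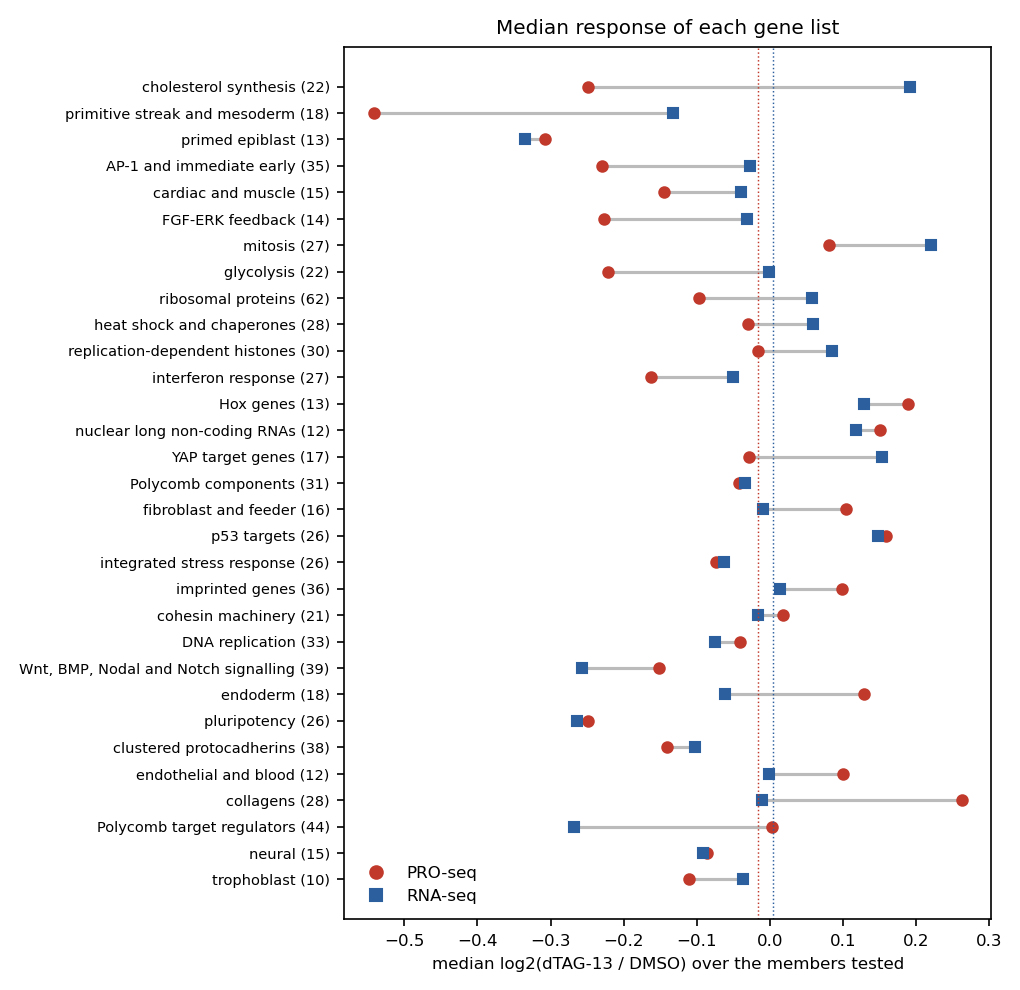
Median log2 response over the tested members of each gene list in PRO-seq (red circles) and RNA-seq (blue squares), with the number of members in parentheses and dotted lines at the medians of all tested genes. Lists run from the lowest median difference at the top, and the top row is cholesterol synthesis at -0.25 in PRO-seq and 0.19 in RNA-seq.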

How the data were processed

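PRO-seq of total RNA on day 7 and poly(A) RNA-seq on day 10 of RAD21-degron embryoid bodies were compared. The deposited PRO-seq table holds expected counts in steps of 0.5, with 28.8% of values not whole, which were rounded, and the deposited RNA-seq table holds whole read counts. The submitters' processing notes list Bowtie2, TopHat2, Novoalign, cutadapt, HOMER, bedtools, deepTools, Juicer, DESeq and DESeq2 and the builds mm9, hg19 and dm6, without versions or roles. Which aligner made each table, how reads were counted and whether strand was used is not stated, so genes that overlap in position are uncertain.

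Genes were matched by symbol (13966) or by a unique synonym (149), and 8414 PRO-seq genes and 1248 RNA-seq genes had no match. Each table was fitted whole with edgeR 4.0.16 in R 4.3.3: filterByExpr with a minimum count of 10, TMM scaling, a clone term and the quasi-likelihood F-test, with Benjamini-Hochberg adjustment and a threshold of 0.05. The fit of an assay has 1 residual degree of freedom and the joint fit of the difference has 2. TMM scaling cannot show a change shared by all genes. The clone is the cell line and pairs the libraries, and the deviations of the clones under dTAG-13 and DMSO correlated at 0.773 in PRO-seq and 0.676 in RNA-seq. Libraries of the 2 clones under the same treatment differed by more than sampling noise in both assays. Noise within a clone could not be measured, since each clone gave 1 library per assay and treatment. The SE is the log2 change over the root of F. It rests on a spread estimated largely over many genes, so it is not the spread between the clones of that gene. Rps18, for example, responded in RNA-seq by 0.18 in clone C4 and 0.79 in clone G9, with an SE of 0.06. Scripts were tested on simulated data.

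Alternatives were RLE scaling, library totals, limma-voom (limma 3.58.1), DESeq2 1.42.0, no filter, mean counts of 50 or more, no clone term, calls from the joint fit, and leaving out each library. Named genes were the largest changes of each class with an average of at least 1 log2 CPM in each assay and the same sign in both clones, without predicted genes, pseudogenes and small RNAs, and up to 3 members of each of the lists. Members of lists with a called difference, and Aplnr and Cyp26a1, were named after their values were seen. Single results of a few genes that count in the totals are not reported here. The gene set and the lists were chosen with earlier results of these data known.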

Additional observations from a re-analysis of the deposited data

Results flagged for a closer look

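The responses of the assays to dTAG-13 differed in 257 genes by edgeR's quasi-likelihood test of the assay by treatment term, at a Benjamini-Hochberg adjusted p under 0.05. For 67 genes chosen by fixed rules the differences, as log2 PRO-seq response minus log2 RNA-seq response, are given here. Assay and day cannot be told apart in them.

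Among genes called in both assays in opposite directions, the PRO-seq response was below the RNA-seq response by a difference of -1.32 for Ndrg1, -1.14 for Sp5, -1.07 for Gsc, -1.06 for Egr3, -1.04 for Adcyap1r1, -1.04 for Evx1, -0.76 for Nr4a1 and -0.69 for Rps18. Further differences of this kind were -0.64 for Fdps, -0.59 for Mvd and -0.57 for Myc. Among genes called in both assays in opposite directions, the PRO-seq response was above the RNA-seq response by a difference of 0.59 for Plk2, 1.04 for Plagl1, 1.38 for Cdh6, 1.41 for Prmt8, 1.57 for Chrnb4, 2.23 for Ntng1 and 2.34 for Fat4.

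Among genes that moved the same way in both assays, the PRO-seq response was below the RNA-seq response by a difference of -1.40 for T, -1.36 for Foxa2, -0.81 for Sall1, -0.79 for Fgf8, -0.78 for Psmb8, -0.75 for Fgf5, -0.75 for Zic2 and -0.65 for Eomes. Further differences of this kind were -0.51 for Pou5f1. Among genes that moved the same way in both assays, the PRO-seq response was above the RNA-seq response by a difference of 1.72 for Magel2.

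Among genes called in PRO-seq alone, the PRO-seq response was below the RNA-seq response by a difference of -1.07 for Slc35a2, -1.01 for Lypd6b, -0.89 for Car4, -0.82 for Cst3, -0.82 for Tpm1, -0.72 for Pxdc1 and -0.57 for Mvk. Among genes called in PRO-seq alone, the PRO-seq response was above the RNA-seq response by a difference of 0.61 for Rpl7a, 0.71 for Snhg3, 0.73 for Myof, 0.86 for Hspa8, 0.96 for Mtus2, 1.10 for Pcdh19, 1.44 for Wnt10a and 1.51 for Pcsk2. Further differences of this kind were 1.74 for Prrx1.

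Among genes called in RNA-seq alone, the PRO-seq response was below the RNA-seq response by a difference of -2.21 for Hoxd1, -0.92 for Dnah11, -0.89 for Hist1h2bc, -0.88 for Nespas, -0.86 for Prn, -0.81 for Atf3, -0.77 for Prnd and -0.70 for Axin2. Further differences of this kind were -0.65 for Eno3, -0.61 for Maff, -0.52 for Sox4, -0.49 for Ctgf and -0.41 for Tagln. Among genes called in RNA-seq alone, the PRO-seq response was above the RNA-seq response by a difference of 0.65 for Rpl27, 0.86 for Sox17, 1.02 for Dll1, 1.48 for Smoc2, 1.56 for Dlx3, 1.57 for Fam43a, 1.57 for Sox9 and 1.69 for Tgfb2. Further differences of this kind were 1.69 for Adra2a and 2.16 for Igfbp5.

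Among these genes, the differences of Eno3 and Psmb8 were lost without any 1 RNA-seq library, with DESeq2 and with limma-voom, and that of Eno3 also without either PRO-seq library of clone C4. Those of Tagln, Sox17, Hist1h2bc and Rps18 were lost without either RNA-seq library of clone G9, that of Tagln also with RLE scaling and DESeq2, that of Sox17 also with DESeq2 and limma-voom, and that of Hist1h2bc also with limma-voom. The Rpl27 difference was lost without either RNA-seq library of clone C4, with DESeq2 and with limma-voom.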

How the results depend on the processing

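The counts below are, in order, genes called in PRO-seq, in RNA-seq and in their difference, then genes called in both assays in the same direction and in opposite directions, then genes with a called difference called in PRO-seq alone and in RNA-seq alone. The reported counts are 1541, 2505, 257, 618, 60, 67 and 96. DESeq2 gave 457, 441, 143, 131, 7, 48 and 44. All of its opposite genes had lower PRO-seq and higher RNA-seq signal. Taking the calls of each assay from the joint fit gave 943 in RNA-seq, 362 and 30 in both, and 112 in PRO-seq alone. Library totals gave 39 opposite genes, and limma-voom gave 51 in RNA-seq alone. The other counts under RLE scaling, library totals, no filter, a mean count of at least 50, limma-voom and the joint fit lay within 1.5 times the reported ones.

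Without the clone term, that is with no replicate block, the counts were 0, 1, 0, 0, 0, 0 and 0, with 397, 769 and 245 genes at an unadjusted p under 0.05 in PRO-seq, RNA-seq and the difference. The pairing comes from the clones.

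Leaving out 1 library at a time, with calls from a joint fit in which a lone clone is assumed to vary like the other assay, gave 1329 to 3059 genes in PRO-seq, 237 to 2490 in RNA-seq, 109 to 1700 differences, 133 to 871 same-direction and 9 to 137 opposite genes, 64 to 944 in PRO-seq alone and 23 to 402 in RNA-seq alone. The highest counts of differences came without a PRO-seq library of clone C4 (1696 and 1700) and then without one of clone G9 (867 and 887). The lowest came without an RNA-seq library of clone G9 (109 and 111). The cause was not tested.

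Of the 67 named differences, 30 were called under all 15 alternatives with a clone term. The RNA-seq response of Sp5 ran from -0.035 to 0.39 when 1 library was left out, changing sign to -0.035 and -0.034 without the DMSO or the dTAG-13 RNA-seq library of clone G9. The 15 alternatives are not separate checks, since the joint fit repeats the reported difference test and the libraries of a clone drop out in pairs. The fit of each assay has 1 residual degree of freedom, and whether replicate number or read depth limits the calls more was not tested.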

Other observations

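Shh and Ntrk2, which lie under the level set for named genes, had large changes in RNA-seq alone, and Rpph1, outside the kinds of gene that were named, changed in PRO-seq. Shh, the Sonic hedgehog ligand gene, was at 0.990 and 1.24 CPM in dTAG-13 PRO-seq libraries, against 0.429 and 0.851 CPM in DMSO, and at 2.76 and 1.72 CPM in dTAG-13 RNA-seq libraries, against 8.26 and 7.11 CPM in DMSO. Ntrk2, a neurotrophin receptor gene, was at 21.4 and 15.7 CPM in dTAG-13 PRO-seq libraries, against 23.7 and 12.4 CPM in DMSO, and at 0.644 and 0.150 CPM in dTAG-13 RNA-seq libraries, against 2.73 and 2.49 CPM in DMSO. Rpph1, the RNA component of RNase P and not a polyadenylated transcript, was at 95.6 and 82.8 CPM in dTAG-13 PRO-seq libraries, against 22.9 and 26.1 CPM in DMSO. These genes were picked after their values were seen.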
